A study of Mus musculus with 8 samples.

Results

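The genes described here mark white blood cells and the machinery by which cells display antigen, 37 genes chosen by symbol. Each was taken from the array probes whose gene name equals its symbol, and where several probes carried that name the one with the highest mean processed signal was used. All 37 had a probe, out of 36083 gene names on the array, 29 with 1 probe and 8 with several. Of these, 35 were well above background throughout at least 1 of the groups and entered the test, among 23282 genes in all. For 34 of the 35 this held on all 8 arrays, and Cd3g, which missed it on control array 2, entered through the knockout arrays alone.

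Leukocytes in the fetal gut are few beside epithelium and muscle, and before birth they are mostly macrophages, with granulocytes and lymphoid cells among them. Macrophages sense microbes through surface receptors and clear debris, and antigen presenting cells load peptides on MHC class II molecules for T cells. MHC class I, built on beta-2-microglobulin, is carried by most nucleated cells. The promoters of MHC class II genes carry an X box and a Y box, bound by the Rfx5 complex and by the trimeric factor NF-Y. Rfx5 and Rfx6 belong to the same family of DNA-binding proteins.

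The series compared whole small intestine of mouse embryos at E18.5, on 4 single-colour arrays labelled control, titled Rfx6+/+, and 4 labelled Rfx6-/-. Mice with a floxed Rfx6 allele were bred to CMV-Cre mice, whose Cre acts broadly, and the resulting heterozygotes were mated with each other, so the deletion was inherited through the germline and not limited to gut cells. Strain background, sex and pooling are not given in the sources used here. The labels do not say that the samples came from separate embryos, so the p-values measure only the spread between these samples, which may be technical. Levels are log2 signal minus the 75th percentile of the same array, and differences are knockout minus control on that log2 scale.

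The probe for Rfx6 itself, starting at base 3337 of its transcript, differed by 0.38 (standard error, SE, 0.29; limma adjusted p 0.504) and was not lower in the arrays labelled knockout. Whether it lies in the deleted stretch is not given in the sources used here, so it checks no label, and every direction below follows the labels. Gip, a gut hormone gene, was at least 172-fold lower. All 8 listed markers of intestinal epithelium were well above background, and 3 of them, Fabp1, Lct and Fabp2, were lower. Their mean level ran from 6.03 to 6.33 on the control arrays and from 5.94 to 6.12 on the knockout arrays. Listed stomach markers were higher in 6 of 7, with mean levels of -5.43 to -4.27 and 1.90 to 2.54. These 6 entered the test through the knockout arrays alone. Gkn2, Atp4a and Cblif were well above background on 0 control arrays, Atp4b on 1, and Gkn1 and Tff1 on 2. The control mean therefore rests largely on values that were not well above background. Liver markers were higher in 2 of 5, with mean levels of 1.33 to 2.84 and 2.47 to 3.23. What these shifts contribute to the values of the leukocyte genes was not tested.

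The members had no common direction. Of the 35 tested, 1 passed the threshold of 0.05 after Benjamini-Hochberg adjustment over all genes in limma's moderated test, which is 2.86% of the members beside 4.89% of all genes. That gene, Cd14, was higher, where 2.32% of all genes were called higher. No member was called lower, where 2.57% of all genes were. At an unadjusted p under 0.05 there were 3 members, 8.57%, beside 20.5% of all genes. The same 3, Cd14, Cd68 and Lyz2, had knockout arrays that all lay on 1 side of the control arrays, 8.57% beside 14.7% of all genes.

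Differences lay on both sides of 0, with 17 members below and 18 above and a median of 0.004, beside -0.051 for all genes. The median size of a difference regardless of sign was 0.153 for the members and 0.144 for all genes. For 31 of the 35 the 95% interval lay within 2-fold in either direction, and for 21 it lay within 1.5-fold. RNA was taken from whole tissue, so fewer cells of a type and less RNA per cell cannot be told apart in any of these values.

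**Figure D1:**
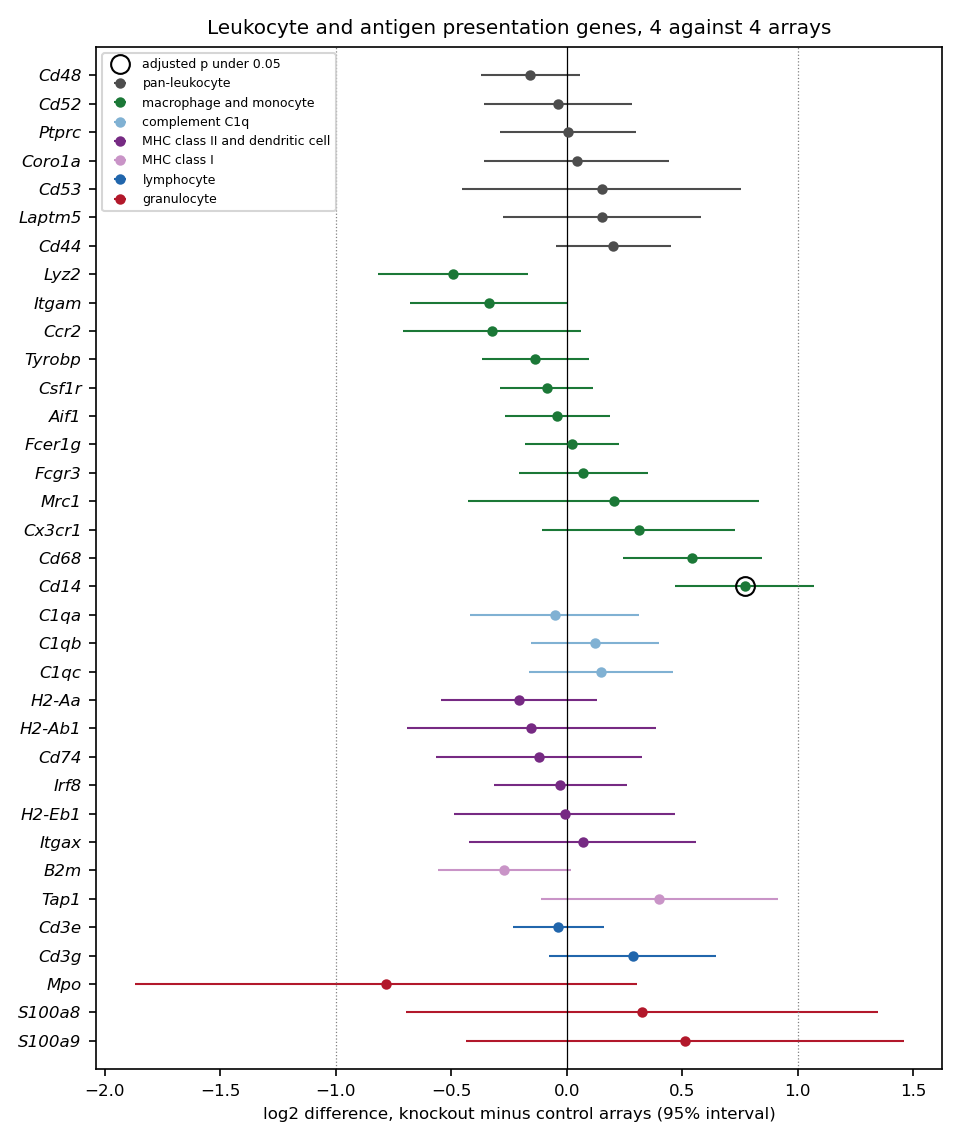
Log2 differences of the 35 tested members, knockout minus control arrays, with 95% intervals (horizontal axis, log2), grouped by role (colour); dotted lines mark 2-fold. Only Cd14, ringed, passed the threshold, at 0.77, and the 3 granulocyte genes at the bottom have the widest intervals, down to -1.87 for Mpo and up to 1.46 for S100a9.

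Among the genes carried by nearly all leukocytes, none of 7 passed the test. Ptprc, which encodes the CD45 phosphatase found on every nucleated blood cell, stood at -2.55, -2.42, -2.54 and -2.45 on control arrays 1 to 4 and at -2.26, -2.35, -2.47 and -2.87 on knockout arrays 1 to 4. The knockout values enclosed the control values, with array 4 lowest. The difference was 0.004 with a 95% interval of -0.29 to 0.30 (limma adjusted p 0.989). That interval lies well within 1.5-fold in both directions. Cd52, a small glycoprotein anchored in leukocyte membranes, read 1.93, 2.40, 1.77 and 1.80 against 1.87, 1.90, 1.90 and 2.09, a difference of -0.04 (limma adjusted p 0.905). Control array 2 was the highest of the 8 for it. Cd44, the hyaluronan receptor, which epithelium and mesenchyme carry too, read 0.13, 0.02, 0.46 and 0.36 against 0.47, 0.53, 0.46 and 0.33. Its groups overlapped and the difference of 0.20 did not pass (limma adjusted p 0.342). The actin regulator Coro1a, the lysosomal protein Laptm5, the tetraspanin Cd53 and the adhesion receptor Cd48 differed by 0.04, 0.15, 0.15 and -0.16, with adjusted p from 0.394 to 0.910. Cd53 was set apart by knockout array 1, at -2.73, with -4.11 to -3.57 on the rest of its group.

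The macrophage and monocyte genes held all 3 members whose groups did not overlap, and these went in different directions. Of 13 genes 12 were tested, 6 below 0 and 6 above, with a median of -0.01. Cd163, a scavenger receptor of mature macrophages, was not well above background on any of the 8 arrays and has no difference here.

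Cd14 rose. It encodes the receptor that, with Tlr4, detects bacterial lipopolysaccharide. Its levels were -2.41, -2.54, -2.49 and -2.38 on the control arrays and -1.37, -1.97, -1.86 and -1.55 on the knockout arrays. Every knockout array lay above every control array, and the control arrays spanned little. The means were -2.46 ± 0.07 and -1.69 ± 0.27 (SD, n = 4 each), a difference of 0.77 (SE 0.13), or 1.71-fold (limma adjusted p 0.0132). Within slide row 1, which held control array 1 and knockout arrays 2, 3 and 4, the difference was 0.62. Within row 2, which held control arrays 2, 3 and 4 and knockout array 1, it was 1.1. Each row difference, here and below, thus rests on 1 array for 1 of the groups. Over 18 alternative settings the difference ran from 0.55 with normexp correction to 0.86, and it was 0.59 in the series matrix values. The call was kept under 16 of the 18, with adjusted p from 0.00837 to 0.0687. It was lost without the filter on dim probes (limma adjusted p 0.0522) and with control array 2 and knockout array 4 both left out (limma adjusted p 0.0687), where the difference was 0.70.

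Cd68, a glycoprotein of macrophage lysosomes, lay close to the threshold. It read -3.24, -3.64, -3.12 and -3.54 on the control arrays and -2.77, -2.72, -2.81 and -3.05 on the knockout arrays. No knockout array fell within the control range. The difference was 0.54 (SE 0.13; limma adjusted p 0.0547). It passed with array weights (limma adjusted p 0.0367) and without control array 3 (limma adjusted p 0.0425), and its adjusted p ran up to 0.163 over the alternatives. Its difference ran there from 0.26 with normexp correction to 0.63, and it was 0.34 in the series matrix values.

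Lyz2, the lysozyme of macrophages and granulocytes, went the other way. It read -2.11, -2.0, -2.40 and -2.41 against -2.80, -2.98, -2.70 and -2.42. The groups met at their edges, since knockout array 4 lay 0.01 below the lowest control array. The difference was -0.49 (SE 0.14; limma adjusted p 0.0930), and -0.59 and -0.52 within slide rows 1 and 2. Array weights put it past the threshold (limma adjusted p 0.0493), and over the alternatives its adjusted p ran from there to 0.280. Its difference ran from -0.59 to -0.26, the latter in the series matrix values, and it was -0.35 with normexp correction. Its 60-base probe, shown because this is the lowest p among members below 0, reads the minus strand of chromosome 10 from base 94 of the transcript (mm9, chr10:116719175-116719234).
Lyz2 probe: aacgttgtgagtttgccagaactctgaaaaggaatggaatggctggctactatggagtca

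The other macrophage genes did not pass. Csf1r, the receptor for the growth factor that macrophages need, read 6.06, 5.88, 6.19 and 5.99 against 5.83, 5.98, 5.99 and 5.98. Its difference was -0.09 with a 95% interval of -0.29 to 0.12 (limma adjusted p 0.623), and its other probes differed by -0.03 and -0.14. Those probes were dimmer, with control means of 2.08 and 1.1 beside 6.03 for the probe used. The fractalkine receptor Cx3cr1, carried by resident gut macrophages, read 1.1, 0.64, 1.31 and 1.31 against 1.63, 1.54, 1.44 and 1.00. Knockout arrays 1, 2 and 3 lay above all controls and array 4 lay within their range. The difference was 0.31 (limma adjusted p 0.382), and 0.40 with its second probe, whose control mean was -1.85 beside 1.09. Itgam, the integrin chain CD11b of myeloid cells, read 5.62, 6.00, 5.47 and 5.36 against 5.21, 5.16, 5.20 and 5.53. Here 3 knockout arrays lay below all controls and array 4 above 2 of them. The difference was -0.34 (limma adjusted p 0.248), and its remaining probes gave -0.26 and -0.03. Those probes were far dimmer, with control means of -3.13 and -2.48 beside 5.61 for the probe used. Why probes of 1 gene differ so in level was not tested, so the levels of Csf1r, Cx3cr1 and Itgam are not settled.

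The signalling adaptors Fcer1g and Tyrobp differed by 0.02 and -0.13, the Fc receptor Fcgr3 by 0.07 and the calcium-binding protein Aif1 by -0.04. All of these 95% intervals lay within 1.5-fold. The mannose receptor Mrc1 differed by 0.20 with a wide interval, -0.43 to 0.83. Ccr2, the chemokine receptor that brings monocytes out of the blood, differed by -0.32 (limma adjusted p 0.326). It was -0.57 in slide row 2, with knockout array 1 alone of its group, and 0.04 in row 1, with control array 1 alone.

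**Figure D2:**
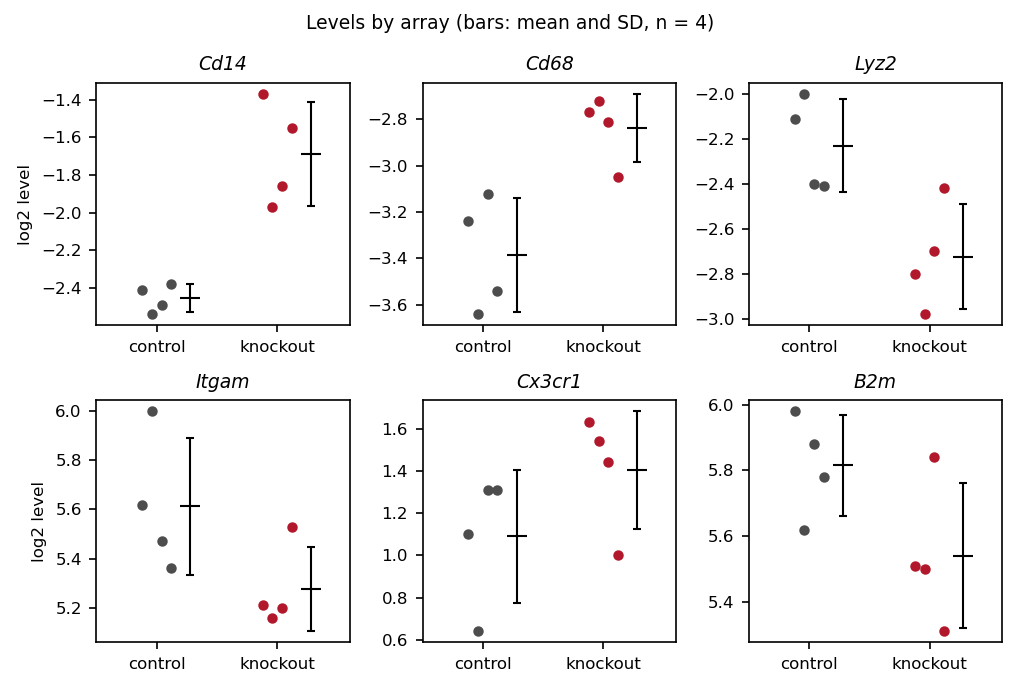
Levels of 6 members on each array (vertical axes, log2 signal relative to the 75th percentile of the array, each with its own range): points are arrays, bars the mean and SD of 4. Cd14 and Cd68 are separated upward and Lyz2 downward by 0.01, while Itgam, Cx3cr1 and B2m overlap.

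The 3 chains of complement C1q, which macrophages make, did not pass either. C1qa, C1qb and C1qc differed by -0.05, 0.12 and 0.15 (limma adjusted p 0.882, 0.611 and 0.583). C1qc read 1.32, 1.05, 1.42 and 1.51 on the control arrays and 1.57, 1.59, 1.59 and 1.15 on the knockout arrays. In each group 1 array was low, control 2 and knockout 4, and the other 3 knockout arrays lay above all controls. The same arrays were lowest in their groups for C1qb.

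Of the genes of MHC class II and dendritic cells 0 of 6 passed, with 5 below 0 and 1 above and a median of -0.07. H2-Aa, the class II alpha chain, read -0.36, -0.71, -0.14 and -0.50 on the control arrays and -0.61, -0.66, -0.36 and -0.91 on the knockout arrays. Of the knockout arrays 3 lay within the control range. Its difference of -0.21 did not pass (limma adjusted p 0.473). Its partner, the beta chain H2-Ab1, read 3.29, 2.64, 3.47 and 3.26 against 3.17, 3.3, 3.19 and 2.39, a difference of -0.15 (limma adjusted p 0.75). The second beta chain H2-Eb1 read 2.16, 1.67, 2.51 and 2.27 against 2.32, 2.35, 2.28 and 1.64, a difference of -0.01 with a 95% interval of -0.49 to 0.47. The invariant chain Cd74, which escorts new class II molecules, read 1.45, 1.02, 1.62 and 1.56 against 1.47, 1.51, 1.43 and 0.75, a difference of -0.12 (limma adjusted p 0.761).

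For these genes the arrays within a group differed more than the groups did. In all 6, control array 2 was the lowest control and knockout array 4 the lowest knockout, including Itgax, the integrin chain CD11c, and Irf8, a transcription factor of dendritic cells and monocytes. Irf8 read 3.51, 3.07, 3.32 and 3.41 against 3.28, 3.33, 3.53 and 3.07. H2-Ab1 stood 1.62-fold below the mean of the other controls on control array 2 and 1.78-fold below the mean of the other knockouts on knockout array 4. For Cd74 these gaps were 1.44-fold and 1.65-fold.

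The same arrays stood low for other cell types. The mean of 5 endothelial markers was -0.30 on control array 2 and -0.23 on knockout array 4, within group ranges of -0.30 to 0.24 and -0.23 to 0.49. For 5 mesenchymal markers it was 3.94 and 4.10, within ranges of 3.94 to 4.72 and 4.10 to 4.90. Control array 1 was low for both lists too, at -0.22 and 4.14. It was not low for the class II and dendritic cell genes, with a mean of 1.58 in a control range of 1.12 to 1.78. Control array 2 and knockout array 4 also received the lowest weights in limma's estimate over all genes, 0.265 and 0.512. The part of these shifts in the class II values was not tested.

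The H2-Aa probe is shown because it reads the gene that pairs with the promoter given next (mm9, chr17:34421285-34421344, minus strand, from base 227 of the transcript).
H2-Aa probe: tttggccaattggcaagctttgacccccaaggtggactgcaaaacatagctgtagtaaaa

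For 30 members the RefSeq table for GRCm38.p6 held a promoter, 34 promoters in all, each 250 bases before to 50 bases after the start of transcription. It held none for the class II genes H2-Ab1 and Cd74, nor for Cd14, Cd52, Csf1r, Tyrobp and C1qa. The promoters of these genes were not searched. The letters GCAAC, as found in X boxes, and ATTGG, as found in Y boxes, were searched on both strands. Counted per promoter, GCAAC was present in 11 of the 34, 32.4%, beside 35.2% of all 32851 promoters, and ATTGG in 13, 38.2%, beside 37.4%. GCAAC followed by ATTGG 30 to 36 bases on, counted from start to start on either strand, was present in 2 of the 34, those of H2-Aa and H2-Eb1, 5.88%, and in 0.341% of all promoters. This spacing was chosen after the positions were seen. The windows below, 110 to 31 bases before the start, are given because they hold the letters of both boxes, in capitals. They lie at chr17:34287854-34287933 on the minus strand for H2-Aa and chr17:34305757-34305836 on the plus strand for H2-Eb1 (GRCm38.p6).
H2-Aa promoter: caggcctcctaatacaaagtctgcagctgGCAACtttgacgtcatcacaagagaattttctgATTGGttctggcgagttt
H2-Eb1 promoter: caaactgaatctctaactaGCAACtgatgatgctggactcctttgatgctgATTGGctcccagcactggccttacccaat

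In H2-Aa the 2 motifs start 81 and 48 bases before the transcription start, and in H2-Eb1 they start 91 and 59 bases before it, so the spacing is 33 and 32 bases. Both genes lacked a called difference, at -0.21 and -0.01. Of the genes whose products bind these boxes, Rfxap, Rfxank, Nfya, Nfyb and Nfyc differed by between -0.11 and 0.16 with adjusted p from 0.718 to 0.837, and Rfx5 did not enter the test because its probe was too dim. Ciita, the coactivator that switches class II genes on, differed by -0.24 (limma adjusted p 0.441).

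Of the class I members, B2m, the light chain of every class I molecule, read 5.98, 5.62, 5.88 and 5.78 against 5.51, 5.50, 5.84 and 5.31. Knockout arrays 1, 2 and 4 lay below all controls and array 3 lay among them. The difference was -0.27 with a 95% interval of -0.56 to 0.02 (limma adjusted p 0.272). Tap1, the peptide pump that feeds class I, read -1.57, -2.35, -1.54 and -1.47 against -1.25, -1.40, -0.95 and -1.74. Its difference was 0.40 (limma adjusted p 0.359), with control array 2 far below the rest.

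Among the lymphocyte genes, the T cell receptor chain Cd3e read 1.06, 0.97, 1.09 and 1.00 against 1.09, 0.93, 0.83 and 1.12. The groups overlapped throughout, and the difference of -0.04 had a narrow 95% interval, -0.23 to 0.16 (limma adjusted p 0.847). Cd3g, a chain of the same receptor, read -4.37, -4.23, -4.44 and -4.18 against -4.09, -3.59, -3.99 and -4.40. Here 3 of 4 knockout arrays lay above all controls, and the difference of 0.29 did not pass (limma adjusted p 0.354). The control mean was 1.03 for Cd3e and -4.3 for Cd3g. Why these chains of the same receptor differ so in level was not tested, so the level of Cd3e is not settled. Il7r, the receptor for interleukin 7, was well above background on 2 control and 3 knockout arrays only, with levels from -4.74 to -3.37, and was not tested.

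The granulocyte genes were the most variable members, and none passed. S100a8 and S100a9 encode the subunits of calprotectin, which neutrophils hold in quantity. S100a8 read -0.59, -0.69, -2.22 and -1.99 on the control arrays and -1.28, -1.48, -1.37 and -0.05 on the knockout arrays. Controls 1 and 2 were high, controls 3 and 4 low, and knockout array 4 the highest of all. S100a9 read 1.27, 1.1, -0.27 and -0.18 against 0.66, 0.71, 0.73 and 1.86, with the same arrays high and low. Their differences were 0.33 and 0.51, with 95% intervals of -0.69 to 1.35 and -0.44 to 1.46 (limma adjusted p 0.717 and 0.531). The probe of S100a8 is shown because this gene varies so widely (mm9, chr3:90473778-90473837, plus strand, from base 213 of the transcript).
S100a8 probe: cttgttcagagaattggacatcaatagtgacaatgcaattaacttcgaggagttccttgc

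Mpo, the peroxidase of granulocyte precursors, read -0.55, -2.66, -2.94 and -2.87 against -3.01, -3.02, -2.89 and -3.23. Control array 1 stood alone, and the other 7 arrays lay between -3.23 and -2.66. Its difference was -0.78 with a 95% interval of -1.87 to 0.30 (limma adjusted p 0.400), and it was -2.50 in slide row 1, which holds that control, and -0.19 in row 2. The listed erythroid markers, from red cells, had mean levels of 3.3, 3.12, 2.57 and 2.82 on the control arrays and 2.44, 2.04, 2.43 and 2.86 on the knockout arrays, so controls 1 and 2 and knockout array 4 were highest there too. The part of blood in the granulocyte values was not tested.

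Spread within groups was wider for the members than for genes at large, with a median residual SD of 0.232 beside 0.169. Among the 35, 7 lay in the widest 10% of all genes, S100a8, S100a9 and Mpo at percentiles 98.3, 97.9 and 98.6. Control array 2 was the lowest control for 20 of the 35 members and knockout array 4 the lowest knockout for 21.

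Whether gene pairs with a shared function moved together was examined in the deviations from the group means, for 6 pairs on 8 arrays, by an exact two-sided permutation of arrays within groups. For S100a8 and S100a9 the arrays fell into separate clusters, control arrays 1 and 2 with knockout array 4 high for both genes and the other 5 low for both. No pooled correlation is given for them, since it would rest on the gap between the clusters. Neither cluster holds 6 arrays, so the relation within a cluster was not tested. For H2-Aa, H2-Ab1 and Cd74 control array 2 and knockout array 4 were the lowest of their groups. They sat apart for H2-Ab1 and Cd74, less so for H2-Aa, and no pooled value is given. Without control arrays 2 and 3, the 2 farthest from the median of H2-Aa, Pearson's r was 0.74 with H2-Ab1 and 0.70 with Cd74. Knockout array 4 was kept there. A further comparison left out control array 2 and knockout array 4, a choice made after their values were seen. Over the remaining 6 arrays Pearson's r with H2-Ab1 was 0.46 and Spearman's rho 0.66 (exact permutation p 0.417 and 0.25). With Cd74 they were 0.05 and -0.03 (exact permutation p 0.972 and 1.0). The pooled values of the other 3 pairs did not pass after adjustment over 6 pairs. C1qa with C1qb had r of 0.59 and rho of 0.69 (exact permutation p 0.177 and 0.101), with r of 0.83 without the 2 arrays farthest from the median. Cd3e with Cd3g had r of -0.67 and rho of -0.81 (exact permutation p 0.222 and 0.0417, adjusted 0.266 and 0.0834), with r of -0.79 without 2 arrays. Csf1r with Cx3cr1 had r of 0.31 and rho of 0.10 (exact permutation p 0.498 and 0.861), with r of 0.11 without 2 arrays.

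**Figure D3:**
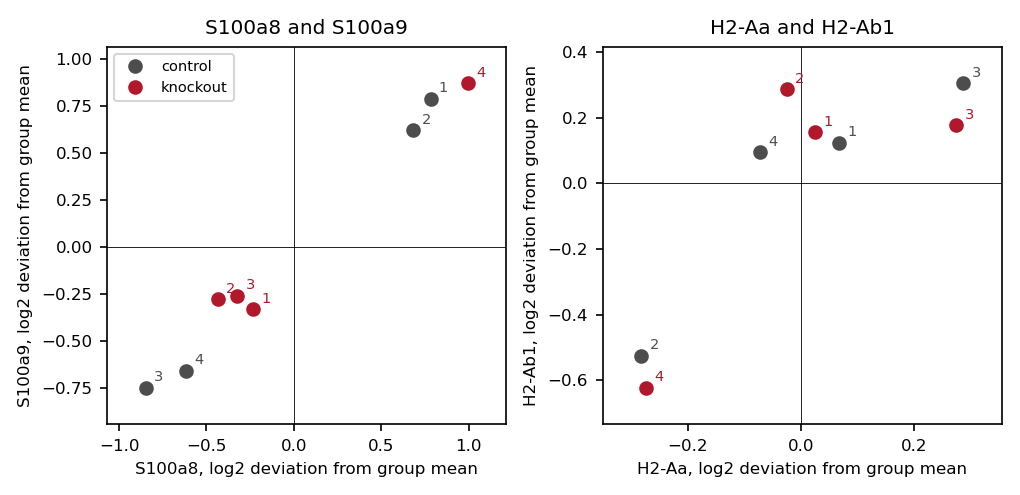
Deviation of each array from its group mean (both axes, log2) for S100a8 with S100a9 and for H2-Aa with H2-Ab1; points are arrays, numbered within their group. In the first panel control arrays 1 and 2 and knockout array 4 sit apart at the upper right, and in the second control array 2 and knockout array 4 sit apart at the lower left.

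Beyond the members, 9 lists of related genes held 158 genes, of which 130 were tested, 3 were lower and 5 higher, with a median difference of 0.07. These are 2.31% lower and 3.85% higher, beside 2.57% and 2.32% of all genes, so both shares are near the background. The 14 genes of class I presentation held no call, with a median of -0.04, and its heavy chain genes H2-K1 and H2-D1 differed by -0.18 and -0.02. The 14 tested genes of class II presentation held no call, with a median of -0.06. The 18 tested macrophage genes and the 5 tested dendritic cell genes held none, with medians of 0.10 and -0.11. Spi1 and Vsig4 of the macrophage list were too dim to test. Spi1 was well above background on 1 array of each group, and Vsig4 on 2 control and 0 knockout arrays. Vsig4 had mean levels of -3.62 and -6.73, with no value on control array 2, and this gap was not tested. In the dendritic cell list the growth factor receptor Flt3 came nearest, at -0.53 (limma adjusted p 0.0679). The 20 genes of the interferon response held none, with a median of 0.23 and 14 above 0, and their mean level was lowest on control array 2, at 0.47, and knockout array 4, at 0.76. At an unadjusted limma p under 0.05 there were 12 genes among the 71 tested in these 5 lists, 16.9%, and 20.5% of all genes. These lists are grouped because none held a call, which favours a low share. The 2 shares are therefore not comparable.

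The calls lay in the other lists and are described gene by gene only. Csf2 had the lowest adjusted p. It encodes the cytokine GM-CSF, which supports granulocytes and macrophages. It read -2.57, -2.50, -2.72 and -2.94 on the control arrays and -5.15, -5.25, -4.80 and -4.38 on the knockout arrays. Every knockout array lay well below every control, and 2 of them were not well above background. Csf2 fell by 2.21 log2 units (SE 0.19; limma adjusted p 3.97e-04), a size that rests in part on those values, and it entered the test through the control arrays alone. It stayed called in all 17 alternatives that gave a value, but the difference shrank to -0.95 with normexp correction and -0.93 in the series matrix values, so its size is not settled.

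The remaining cytokines moved less. Il7, the survival factor of lymphocytes, whose receptor gene Il7r is among the members, read -3.85, -3.77, -3.96 and -3.74 against -4.50, -4.73, -4.30 and -4.45. The groups were apart by 0.34, and 1 knockout array was not well above background. Il7 fell by 0.67 (limma adjusted p 0.00864), and it entered the test through the control arrays alone. With normexp correction the difference was -0.26 (limma adjusted p 0.0759) and with the series matrix values -0.19 (limma adjusted p 0.246), which ended the call. Il33, an alarmin released by damaged barrier cells, read -0.44, -0.28, -0.08 and 0.13 against 0.69, 0.51, 0.60 and 0.51, and rose by 0.74 (limma adjusted p 0.0118). That call was lost with control array 2 and knockout array 4 both left out (limma adjusted p 0.0574), where the difference was 0.73. Ccl28, a chemokine of mucosal epithelium, read -2.36, -2.84, -2.60 and -2.55 against -3.32, -2.87, -3.21 and -3.27. It fell by 0.58 (limma adjusted p 0.0414), with knockout array 2 next to control array 2, and was called under 7 of 18 alternatives. Its call ended without control array 1, 3 or 4 and without knockout array 1, 3 or 4, at adjusted p from 0.0827 to 0.122.

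Of the other calls, Cd3d, the delta chain of the T cell receptor complex, is a partner of Cd3e and Cd3g. It read -5.00, -6.05, -4.91 and -6.00 on the control arrays, none well above background, and -3.96, -3.55, -3.80 and -4.20 on the knockout arrays. It was therefore at least 1.65-fold higher, against the higher of its own signal and the lowest signal that is well above background on each control array. It entered the test through the knockout arrays alone, and its limma adjusted p of 0.0153 rests on control values that were not above background. The call held in 13 of 17 alternatives, with adjusted p up to 0.0823, and the difference of 1.61 shrank to 0.29 under normexp correction and 0.43 in the series matrix values. The call was lost without knockout array 2 (limma adjusted p 0.0572). Its partners Cd3e and Cd3g differed by -0.04 and 0.29 without passing. The Cd3d probe is shown beside that of Ltf, the secreted iron-binding protein lactotransferrin, to show which stretches of these called genes were read. They lie at mm9 chr9:44794171-44794402, plus strand, across a splice junction, and chr9:110942873-110942932, plus strand.
Cd3d probe: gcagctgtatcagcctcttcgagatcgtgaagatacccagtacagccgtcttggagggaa
Ltf probe: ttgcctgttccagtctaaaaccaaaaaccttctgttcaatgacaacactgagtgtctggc

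Ltf read -0.17, -0.99, -0.01 and -0.16 against 1.39, 2.03, 1.02 and 0.51. All knockout arrays lay above all controls, and the spread within each group was wide. It rose by 1.57 (SE 0.33; limma adjusted p 0.0307). Besides neutrophils, glandular epithelium makes it, and 6 of 7 stomach markers rose on the same arrays, whose part in this value was not tested. Runx1, a transcription factor of blood formation, read -2.71, -3.10, -2.57 and -3.09 against -1.75, -1.82, -2.25 and -2.23, a rise of 0.86 (limma adjusted p 0.0231). Kit, the stem cell factor receptor of mast cells and of the pacemaker cells of the gut wall, read -0.42, -0.33, -0.30 and -0.28 against 0.12, 0.26, 0.04 and -0.13, a rise of 0.40 (limma adjusted p 0.0477). These calls were less stable, with Ltf and Kit called in 8 of 18 alternatives and Runx1 in 10. Leaving out any of control arrays 1, 2, 3 and 4 or knockout arrays 1, 2 and 3 ended the calls of Ltf and Kit, at adjusted p from 0.0516 to 0.137. Runx1 lost its call without control array 1 or 4 or knockout array 1 or 2, at adjusted p from 0.0513 to 0.0796.

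**Figure D4:**
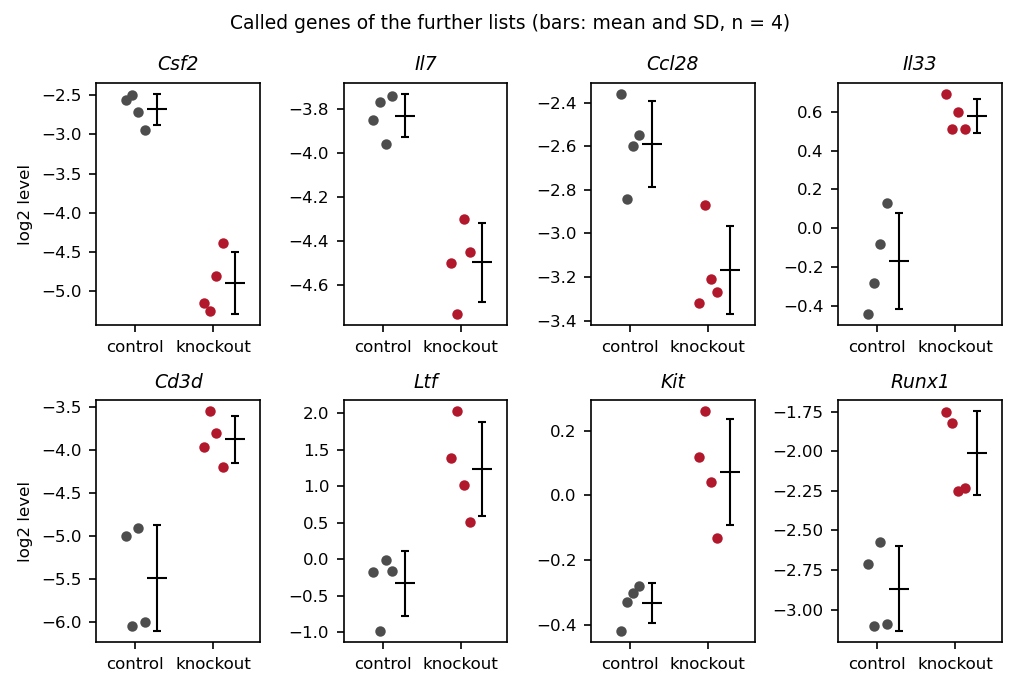
Levels on each array of the 8 called genes of the related lists (vertical axes, log2 signal relative to the 75th percentile of the array, each with its own range): points are arrays, bars the mean and SD of 4. In all 8 the knockout arrays lie on 1 side of the controls, with the widest gap for Csf2 and the narrowest for Ccl28.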

How the data were processed

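Total RNA, 100 ng per sample, was amplified and labelled with cyanine 3, per the labels' protocols. The deposited scanner files give an intensity per spot on mm9 coordinates, and the processed signal is an intensity already background-subtracted by Agilent Feature Extraction 10.10.1.1, per the file headers. The authors' series matrix holds intensity values whose order followed the spot medians; it was used as an alternative only.

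Control spots, 3671 of 62976, were left out, as were spots marked as outliers, 153 to 355 per array; none was saturated. Spots of 1 probe were averaged, giving 55681 probes. Log2 signal was taken relative to each array's 75th percentile, 636 to 741 signal units, and 57.5% to 67.2% of probes were well above background. The number of arrays limits the precision. Of all probes, 26320 carried a current symbol, 2864 were named by RefSeq accession and 492 by synonym through a GRCm38.p6 table, and 26005 kept the file's name.

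A gene was tested if its probe was well above background throughout at least 1 group of 4 arrays. The test was limma 3.58.1 (lmFit, then eBayes, in R 4.3.3) over all 8 arrays, two-sided, with Benjamini-Hochberg adjustment over 23282 genes and a threshold of 0.05. The code was tested on simulated data. All arrays shared 1 slide and 1 scan. Groups and replicate numbers came from the source labels; same-numbered arrays had deviations that correlated at -0.069, -0.172, 0.071 and -0.407, so the numbers do not pair the arrays.

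The members, the 9 further lists, the marker lists and the rule for naming genes were chosen with earlier results of these data known. The rule gives every array's value for members that passed the test, for members with an unadjusted p under 0.05 whose groups did not overlap, and for the member with the smallest p and the member with the highest mean level in each of 7 roles; some other members are given too. Of the further lists, called genes are named; a few genes outside this rule were chosen after their values were seen. The alternatives tried were quantile normalization, normexp correction (offset 50), no filter, a filter on all 8 arrays, averaging the probes of each gene, the series matrix, replicate and slide row blocks, array weights and leaving out each array. Leaving out control array 2 and knockout array 4 together was added after the array weights were seen.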

Additional observations from a re-analysis of the deposited data

Results flagged for a closer look

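Among 86 groups of 4 values, 14 held a value far from the other 3 by Dixon's criterion, where chance gives about 1 in 20, or 4.3. The groups share the same arrays and are not independent, so the shift of 1 array can be counted many times. Of the 14, 10 were on knockout array 4, 2 on control array 2 and 1 each on control array 1 and knockout array 1. Their cause was not tested.

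On knockout array 4 the antigen presentation genes Cd74, H2-Ab1 and H2-Eb1 were low, at 0.75, 2.39 and 1.64, where the other knockout arrays began at 1.43, 3.17 and 2.28. The same array was low for Itgax at -0.93, for C1qc at 1.15 and for Coro1a at 1.07. It was high for the granulocyte genes S100a8 at -0.05 and S100a9 at 1.86, for Itgam at 5.53 and for Cd52 at 2.09. Knockout array 1 was low for Csf1r, at 5.83, where the other 3 lay between 5.98 and 5.99, a gap much smaller than the rest.

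Among the controls, array 1 was high for Mpo, at -0.55 beside -2.94 to -2.66. Control array 2 was low for Tap1, at -2.35 beside -1.57 to -1.47, and for Ltf, at -0.99 beside -0.17 to -0.01.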

How the results depend on the processing

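Of 629 values for single members under the alternatives, 624 kept their direction or their lack of a call, 3 gained a call and 2 lost one. The count of members called lower, 0, became 1 with array weights (Lyz2). The count called higher, 1, became 2 with array weights (Cd14 and Cd68), 0 without the filter and 0 with control array 2 and knockout array 4 left out together. Leaving out 1 array gave 1 to 2, with 2 without control array 3. The members' median difference stayed within the spread between arrays, from -0.022 to 0.059 on leaving out 1 array.

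Over all genes the counts moved more. Lower genes, 599, became 201 without the filter and 1256 with array weights, and higher genes, 540, became 297 and 824. Over the 8 fits that each left out 1 array the lowest and highest counts were 232 and 590 for lower genes, and 347 and 513 for higher ones. Lower genes were 240 without control 1, 310 without control 3, 356 without control 4, 244 without knockout 1 and 232 without knockout 2. Higher genes were 352 without control 1, 352 without knockout 1 and 347 without knockout 2.

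In the 9 further lists 3 lower genes became 1 with the filter on all 8 arrays, 1 with the series matrix and 5 with array weights. The 5 higher genes became 1 without the filter, 1 with the slide row block, 8 with array weights and 3 without both arrays of low weight, and 1 to 5 on leaving out 1 array. Of 141 values for their called genes, 48 lost the call.

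With the replicate number as a block, which does not pair the arrays, 148 genes were lower and 266 higher. In the further lists 1 gene was lower and 1 higher, Il7 and Il33 lost their calls (limma adjusted p 0.0743 each) at differences of -0.67 and 0.74, and Cd14 remained called (limma adjusted p 0.0403). The causes of these shifts were not tested. Dim probes limit what can be said of Cd163, Il7r, Cd3d, Csf2 and Vsig4.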
